A study of Mus musculus with 4 samples.

Results

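Cohesin and the factors that load it onto chromosomes and take it off were examined in newly made RNA of mouse embryonic stem cells. Libraries were made before and after auxin, added to degrade the U1 snRNP protein SNRNP70. The values used here do not include the level of that protein. The 10 genes were chosen by symbol, by a rule that used no measured values, although earlier results of these data were known. They are the subunit genes Smc1a, Smc3, Rad21, Stag1 and Stag2, the loader genes Nipbl and Mau2, and the release and regulatory genes Wapl, Pds5a and Pds5b. All 10 had a row among the 55401 rows of the count table, and all 10 were among the 17344 genes that passed the filter on low counts.

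RNA labelled with 4-thiouridine (4sU), which marks recently transcribed molecules, was sequenced from the line 129/Ola, grown in medium with serum and leukemia inhibitory factor. The titles of all 4 libraries name a line with an auxin-inducible degron (AID) on SNRNP70, which sends the tagged protein for degradation once the auxin IAA is added. The groups were 2 libraries without auxin (0 h) and 2 libraries after 5 h of auxin. The labels give the 0 h cells the genotype WT, and were taken here, from their titles, as the degron line before auxin. If they were cells without the degron, a difference of genotype could not be told apart from the treatment. The number of clones was not given in the sources used here. Cells without the degron that received auxin were not analysed here, so an effect of auxin itself and the loss of SNRNP70 cannot be told apart. The series text calls the libraries of a group independent replicates. Nothing in the labels ties them to separate cultures, so the p-values may measure technical spread only.

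Cohesin is a ring that holds sister chromatids together and folds interphase chromatin into loops. SMC1A and SMC3 form the arms of the ring, RAD21 closes it, and STAG1 or STAG2 binds RAD21. NIPBL with MAU2 loads the ring and drives loop extrusion, while WAPL, with PDS5A or PDS5B, opens it. In embryonic stem cells cohesin and its loader are known for their occupancy at enhancers and promoters of active genes.

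Library totals ran from 7174772 to 17752887 counts. Levels are given as CPM, counts scaled to library size, here with TMM factors, which set the bulk of genes to no change. Every value is therefore relative to the other RNAs of its library. The mitochondrially encoded share of the counts was 4.34% to 4.41% at 0 h and 6.03% to 7.17% at 5 h. Beyond fits scaled to the mitochondrially encoded genes, given below, its part in the results was not tested. The summed level of 9 stem cell marker genes was 3050 to 3173 CPM at 0 h and 3471 to 3495 CPM at 5 h. These genes did not move alike. In the test given below, Pou5f1, Sox2, Klf4 and Utf1 rose, Nanog and Tdgf1 fell, and 3 did not pass. The summed level of 8 fibroblast marker genes was 10.9 to 12.4 CPM at 0 h and 13.7 to 14.3 CPM at 5 h, and Col3a1, Col6a3, Dcn and Lum had no count in any library. Endoderm markers summed to 8.14 to 14.7 CPM at 0 h and 13.0 to 15.3 CPM at 5 h, and neurectoderm and mesoderm markers to 59.6 to 62.5 and 56.6 to 64.1 CPM. Labelled Snrnp70 RNA, which the degron does not act on, was 249 and 243 CPM at 0 h and 451.0 and 475.5 CPM at 5 h.

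The cohesin genes did not move as a block. In edgeR's quasi-likelihood test, adjusted by Benjamini-Hochberg over all tested genes, Smc3 and Rad21 rose, Smc1a, Stag1, Stag2 and Nipbl fell, and Mau2, Wapl, Pds5a and Pds5b did not pass an adjusted p of 0.05. The 2 members that rose compare with 22% of all tested genes, and the 4 that fell with 21.2%. In all, 6 of 10 were called, against 43.2% of all tested genes. The groups did not overlap for 8 of the 10, against 73.5% of all tested genes: 4 lay higher at 5 h (36% of tested genes) and 4 lower (37.5%). No member fell by 2-fold or more, which 10.2% of tested genes did. The median log2 fold change (5 h minus 0 h) of the 10 was -0.00, from -0.65 to 0.50, beside a median of -0.02 over all tested genes. With 10 genes, these shares say nothing particular about the cohesin genes. All members span 28.2 kb or more. Among tested genes of 20 to 50, 50 to 100 and over 100 kb, 31.6%, 36.2% and 29.7% fell. In the same order, 18.8%, 16.3% and 9.29% rose. The lower and upper quartiles were -0.80 and 0.30 for tested genes of 20 to 50 kb. They were -0.82 and 0.23 for 50 to 100 kb, and -0.76 and 0.15 for over 100 kb. The members' full range is not a like measure to these quartiles. In this bulk RNA, fewer cells of a kind and less RNA per cell cannot be told apart. Below, errors of CPM values are SD (n = 2 libraries) and errors of log2 fold changes are SE.

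**Figure D1:**
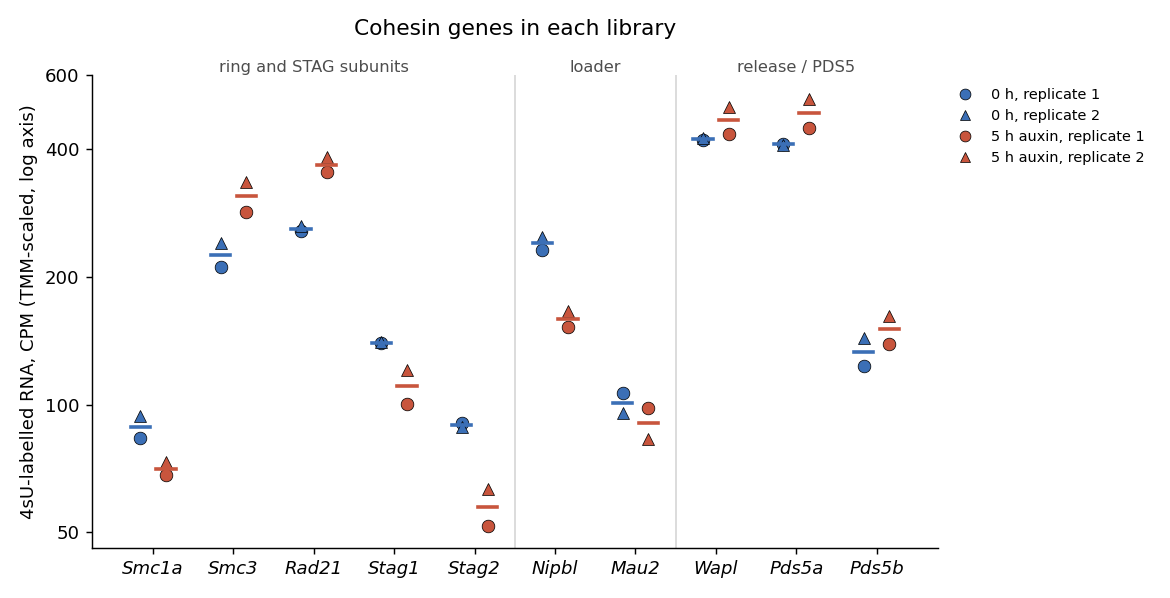
Labelled RNA of the 10 cohesin genes in each of the 4 libraries, in TMM-scaled CPM on a log axis. Circles are replicate 1, triangles replicate 2, bars the mean of 2 libraries, blue 0 h and red 5 h of auxin. The levels are not per length, so they compare libraries and not genes. Smc3 and Rad21 lie higher at 5 h and Smc1a, Stag1, Stag2 and Nipbl lower, without overlap. Mau2 and Pds5b overlap.

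With TMM, the arms of the ring went opposite ways. Smc1a (ENSMUSG00000041133.11, chromosome X from 152016428 to 152061973, mm10) measured 83.5 and 94.0 CPM in the 0 h libraries and 68.2 and 73.2 CPM in the 5 h libraries. Both 5 h libraries were below both 0 h libraries. Smc1a fell by 0.33 ± 0.11 on the log2 scale, or 1.25-fold, with adjusted p = 0.0395 by edgeR. That call was lost without 0 h replicate 1 (log2 -0.41, adjusted p = 0.072), without 0 h replicate 2 (-0.24, 0.327) and without 5 h replicate 1 (-0.28, 0.0771). With DESeq2 its adjusted p was 0.0932, and over 15 alternatives its adjusted p ran from 0.000129 to 0.589.

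Smc3 (ENSMUSG00000024974.10, chromosome 19 from 53600396 to 53645831) measured 211 and 240.4 CPM at 0 h and 284.5 and 336 CPM at 5 h. The groups were apart, at means of 226 ± 20.6 and 310.2 ± 36.3 CPM. Smc3 rose by 0.46 ± 0.11 on the log2 scale, or 1.37-fold (edgeR, adjusted p = 0.00614). Leaving out 0 h replicate 1 gave 0.37, which did not pass (adjusted p = 0.0698). With scaling to library totals it was 0.19 and did not pass (adjusted p = 0.165), and with scaling to mitochondrially encoded genes it was -0.40.

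Smc1a and Smc3 cover nearly the same length of genome, 45.5 and 45.4 kb from start to end. Their signs were opposite with TMM but not with mitochondrial scaling, where they were at -1.18 and -0.40. With TMM on genes of 50 kb or more they were at -0.08 and 0.70. The part of gene span was not tested. The upstream sequences of Smc1a and Smc3 are shown because of the contrast with TMM. An annotated start of Ribc1, on the other strand, lies just before Smc1a, and the 132 bases between these starts are printed, although the whole span of Ribc1 also reaches into Smc1a. For Smc3 the same number of bases up to its start is printed. Both come from RefSeq, build GRCm38.p6, plus strand, 5′ to 3′. Capitals mark the GC box (GGGCGG) and the CCAAT box (the letters CCAAT), each searched on both strands, so that a match on the opposite strand appears as its reverse complement.
Smc1a, chrX:152016296-152016427: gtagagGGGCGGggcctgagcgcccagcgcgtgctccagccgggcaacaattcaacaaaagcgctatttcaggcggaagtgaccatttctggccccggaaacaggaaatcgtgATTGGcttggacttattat
Smc3, chr19:53600264-53600395: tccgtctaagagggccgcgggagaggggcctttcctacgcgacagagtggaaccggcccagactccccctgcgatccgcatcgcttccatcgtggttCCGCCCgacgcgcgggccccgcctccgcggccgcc

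The Smc1a stretch held a GC box at bases -126 to -121 from the start and a CCAAT box, on the opposite strand, at -19 to -15. The Smc3 stretch held a GC box on the opposite strand at -35 to -30 and no CCAAT box. G and C made up 56.1% of the Smc1a stretch and 72.7% of the Smc3 stretch, with 9 and 19 CG pairs, beside medians of 54.5% and 3 over 32851 promoter windows of this length. Of those windows 27.4% held a GC box and 22.6% a CCAAT box. Neither stretch held the ETS motif CCGGAAG (in 5.24% of all windows), the CRE core TGACGT (4.82%), the cell cycle element TTTGAA (7.9%), the TATA box TATAAA (6.89%) or the NRF1 palindrome (0.609%), on either strand. Promoter windows were at hand for 7 of the 10 genes: Smc1a, Smc3, Stag1, Mau2, Wapl, Pds5a and Pds5b. Stag1, which fell, held a GC box and a CCAAT box, at 72.7% G and C like Smc3. Wapl (73.5%) held both boxes too. Mau2 (56.8% in its first window) and Pds5a (81.1%) held a GC box and no CCAAT box, and Pds5b (70.5%) the reverse. The second window of Mau2 held neither. Whether these features go with the direction of change was not tested. A match of letters is a description and does not show a bound site.

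Rad21 (ENSMUSG00000022314.10, chromosome 15 from 51962604 to 51993538), whose product closes the ring and is cut by separase at anaphase, had the highest log2 fold change of the 10 genes. It measured 257 and 264 CPM at 0 h and 354 and 383 CPM at 5 h. Both 5 h libraries exceeded both 0 h libraries, and the replicates of a group lay close together. Rad21 rose by 0.50 ± 0.09 on the log2 scale (edgeR, adjusted p = 0.00112). Leaving out each library in turn gave log2 fold changes of 0.45 to 0.55, all past the threshold. With mitochondrial scaling the value was -0.35 and did not pass (adjusted p = 0.0661).

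The STAG genes encode alternative subunits, so a given ring holds either STAG1 or STAG2. Stag2 (ENSMUSG00000025862.14, chromosome X from 42149297 to 42277186) measured 90.6 and 88.6 CPM at 0 h and 51.65 and 63.1 CPM at 5 h. The groups were far apart beside their spread, and Stag2 had the lowest log2 fold change of the 10. It fell by 0.65 ± 0.13 on the log2 scale, or 1.57-fold (edgeR, adjusted p = 0.00197), and was called lower under all 15 alternatives.

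Stag1 (ENSMUSG00000037286.15, chromosome 9 from 100597709 to 100958544), with 360.8 kb the longest gene of the group, measured 140.1 and 140.2 CPM at 0 h and 100.1 and 121 CPM at 5 h. Its 0 h libraries were almost equal and its 5 h libraries were lower and further apart. Stag1 fell by 0.35 ± 0.11 on the log2 scale, or 1.27-fold (edgeR, adjusted p = 0.0288). The call was lost when 0 h replicate 1, 0 h replicate 2 or 5 h replicate 1 was left out, with adjusted p = 0.11, 0.116 and 0.0843, and over 15 alternatives the adjusted p ran from 4.66e-05 to 0.471.

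Within a library, the ratio of Stag1 to Stag2 counts needs no scaling. It was 1.55 and 1.58 at 0 h and 1.94 and 1.91 at 5 h, so the groups did not overlap and Stag2 lost more than Stag1. The log2 ratio went from 0.65 ± 0.02 to 0.94 ± 0.01 (SD, n = 2), a change of 0.30. With 2 libraries against 2, an exact two-sided permutation test cannot go below p = 0.333, which it reached here (Benjamini-Hochberg adjusted p = 0.416 over the 5 ratios computed).

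**Figure D2:**
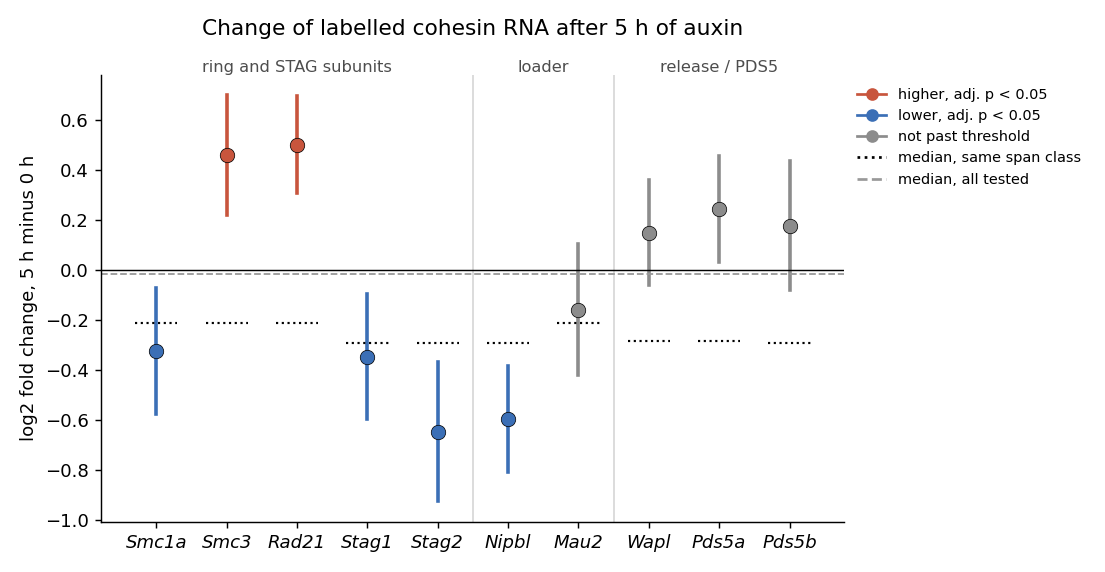
Log2 fold change (5 h minus 0 h) of the 10 cohesin genes in the TMM-scaled fit, with 95% confidence intervals from edgeR's quasi-likelihood fit as bars. Dotted marks give the median of tested genes in the same class of gene span, and the dashed line the median of all tested genes. Smc3 and Rad21 lie at 0.46 and 0.50, and Stag2 and Nipbl at -0.65 and -0.60.

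Of the loader genes, Nipbl fell and Mau2 did not pass. Nipbl (ENSMUSG00000022141.7, chromosome 15 from 8289824 to 8465315), the large subunit that activates cohesin's ATPase, measured 232 and 249 CPM at 0 h and 152 and 166 CPM at 5 h. The groups did not overlap, at means of 240.5 ± 11.5 and 159 ± 9.85 CPM. Nipbl fell by 0.60 ± 0.10 on the log2 scale, or 1.51-fold, with adjusted p = 0.000642 by edgeR, and was called lower under all 15 alternatives.

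Its partner Mau2 (ENSMUSG00000031858.16, chromosome 8 from 70014527 to 70042734) measured 107 and 95.6 CPM at 0 h and 98.3 and 83.0 CPM at 5 h, and the groups overlapped. Its log2 fold change was -0.16 ± 0.12, with a 95% confidence interval from -0.42 to 0.10 (edgeR, adjusted p = 0.313). It passed as lower without 5 h replicate 1 (-0.30, adjusted p = 0.0497), while it was -0.04 without 5 h replicate 2 (adjusted p = 0.793) and -0.07 without 0 h replicate 1 (adjusted p = 0.792). It had a value of 0.09 when TMM was computed on genes of 50 kb or more. The count ratio of Mau2 to Nipbl was 0.459 and 0.384 at 0 h and 0.646 and 0.5 at 5 h, a log2 change of 0.44 with no overlap. That change was 0.25 without 5 h replicate 1 and 0.62 without 5 h replicate 2. Its exact two-sided permutation p was 0.333, the smallest possible.

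The factors that open or regulate the ring lay above the median gene, but none passed the test. Wapl (ENSMUSG00000041408.18, chromosome 14 from 34672379 to 34747983), the release factor, measured 421 and 426 CPM at 0 h and 435 and 505 CPM at 5 h. Its groups did not overlap, yet the gap between them was smaller than the spread of the 5 h libraries. The log2 fold change was 0.15 ± 0.09, with a 95% confidence interval from -0.06 to 0.36 (edgeR, adjusted p = 0.232). It passed as higher without 5 h replicate 1 (0.24, adjusted p = 0.0276) and was 0.04 without 5 h replicate 2 (adjusted p = 0.689).

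Pds5a (ENSMUSG00000029202.12, chromosome 5 from 65605719 to 65698236) encodes a HEAT-repeat partner of WAPL and measured 412 and 411 CPM at 0 h and 449 and 526 CPM at 5 h. The 0 h libraries were nearly equal, and both 5 h libraries were above them. Its log2 fold change of 0.24 ± 0.10 fell short of the threshold (edgeR, adjusted p = 0.0620), with a 95% confidence interval from 0.03 to 0.46. It was called higher in 8 of 15 alternatives, DESeq2 (Benjamini-Hochberg adjusted p = 0.0392) and the fit without 5 h replicate 1 (0.35, adjusted p = 0.00397) among them. Without 5 h replicate 2 it was 0.13. Over the 15 its adjusted p ran from 0.00168 to 0.843.

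Pds5b (ENSMUSG00000034021.15, on the same chromosome from 150673713 to 150810669) encodes its paralogue and measured 123 and 144 CPM at 0 h and 139 and 162 CPM at 5 h. The groups overlapped, and the log2 fold change was 0.18 ± 0.12, with a 95% confidence interval from -0.08 to 0.43 (edgeR, adjusted p = 0.248). The ratio of Pds5a to Pds5b counts was 3.35 and 2.86 at 0 h and 3.23 and 3.24 at 5 h. These ratios overlapped, with a log2 change of 0.06 that was smaller than the 0 h spread of 0.16 (exact two-sided permutation p = 1). Without 0 h replicate 2 that change was -0.05, and without 0 h replicate 1 it was 0.18.

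Larger log2 changes than for the STAG or PDS5 pairs were measured for Smc1a to Smc3 and for Wapl to Nipbl, in every fit that left out a library too. The count ratio of Smc1a to Smc3 was 0.395 and 0.391 at 0 h and 0.24 and 0.218 at 5 h. Its log2 value went from -1.35 ± 0.01 to -2.13 ± 0.10 (SD, n = 2), a change of -0.78, so 0.581 of the starting ratio was left. The ratio of the release gene Wapl to the loader gene Nipbl was 1.81 and 1.71 at 0 h and 2.86 and 3.04 at 5 h. That is a log2 change of 0.74, or 1.67-fold, with replicate SDs of 0.06 in each group. In both ratios the groups did not overlap, and the exact two-sided permutation p was 0.333 (adjusted p = 0.416), the smallest 2 against 2 can give. Leaving out each library in turn kept the Smc1a to Smc3 change between -0.85 and -0.71 and the Wapl to Nipbl change between 0.70 and 0.79.

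**Figure D3:**
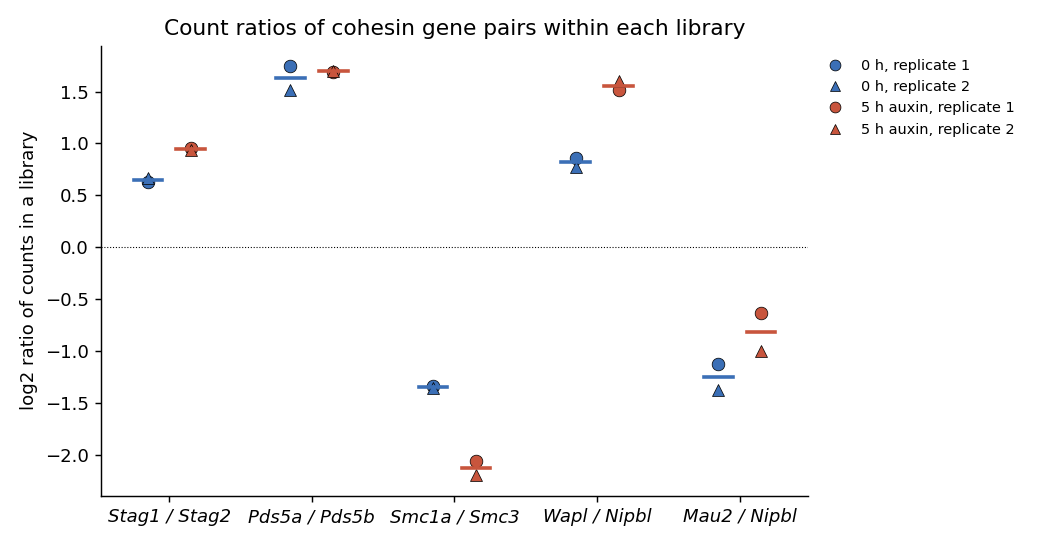
Log2 ratio of the counts of cohesin gene pairs within each library, which does not depend on the scaling between libraries. Circles are replicate 1, triangles replicate 2, bars group means, blue 0 h and red 5 h of auxin. The height of a pair also reflects the genes' lengths. Smc1a / Smc3 goes from -1.35 to -2.13 and Wapl / Nipbl from 0.82 to 1.56, while Pds5a / Pds5b overlaps between the groups.

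U1 snRNP is known to keep transcription going through long genes, so the cohesin genes were set beside others of their own span, known for 15033 tested genes. The members run from 28.2 kb (Mau2) to 360.8 kb (Stag1). Among tested genes of 20 to 50 kb the median log2 fold change was -0.21, of 50 to 100 kb -0.28 and of over 100 kb -0.29. Smc3 was 0.67 and Rad21 0.71 above the median of their class, higher than 82.1% and 83.8% of it. Wapl, Pds5a and Pds5b were 0.43, 0.53 and 0.47 above theirs. Stag2 was 0.35 below and Nipbl 0.30 below, with 30.3% and 32.9% of their class lower still. Smc1a, Stag1 and Mau2 were within 0.12 of their class medians, at -0.11, -0.05 and 0.05. In all, 6 members lay above and 4 below.

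The 3 members over 100 kb that fell, Stag1, Stag2 and Nipbl, share their class with Pds5b, which at 137 kb had a positive value. Ranked across the 10 genes, log2 fold change and span had a Spearman's rho of -0.552, and log2 fold change and mean level one of 0.697. Both describe 10 points from the same 4 libraries, and the level is not per length.

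**Figure D4:**
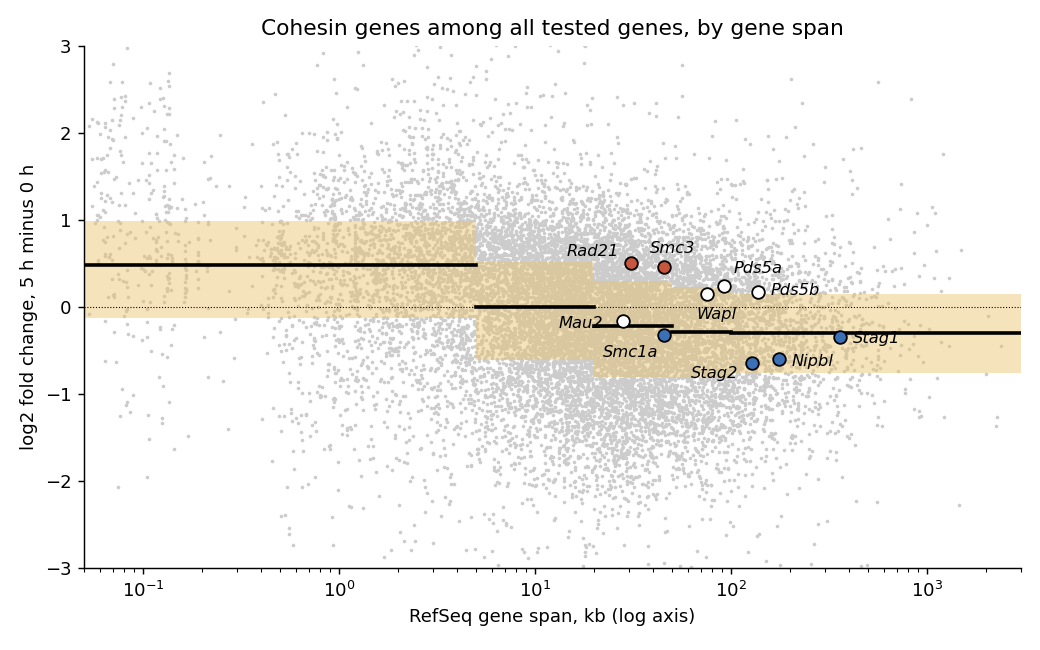
Log2 fold change (5 h minus 0 h) against RefSeq gene span in kb on a log axis. Grey points are the tested genes with a known span (180 of 15033 lie outside the axes), black lines class medians and shading the quartiles of each class. Members past the threshold are red (higher) or blue (lower), the others white. Rad21 and Smc3 lie above the upper quartile of genes of 20 to 50 kb, while Smc1a, at the same span as Smc3, lies near its class median.

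The sign of several members depended on the scaling, while their order did not. With library totals the median over all tested genes was -0.28 and that of the members -0.27, and with mitochondrial scaling these were -0.86 and -0.85. Library totals left Smc3 (0.19) and Rad21 (0.23) as the only positive members, with 1 called higher and 5 lower. With mitochondrial scaling all 10 were negative and 9 were called lower, Rad21 being the exception. With TMM on genes of 50 kb or more, 5 were called higher and 2 lower, and the median over all tested genes was 0.23. Spearman's rho between the members' order in each of these fits and in the TMM fit was 1, which follows from a scaling shifting all genes nearly alike.

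**Figure D5:**
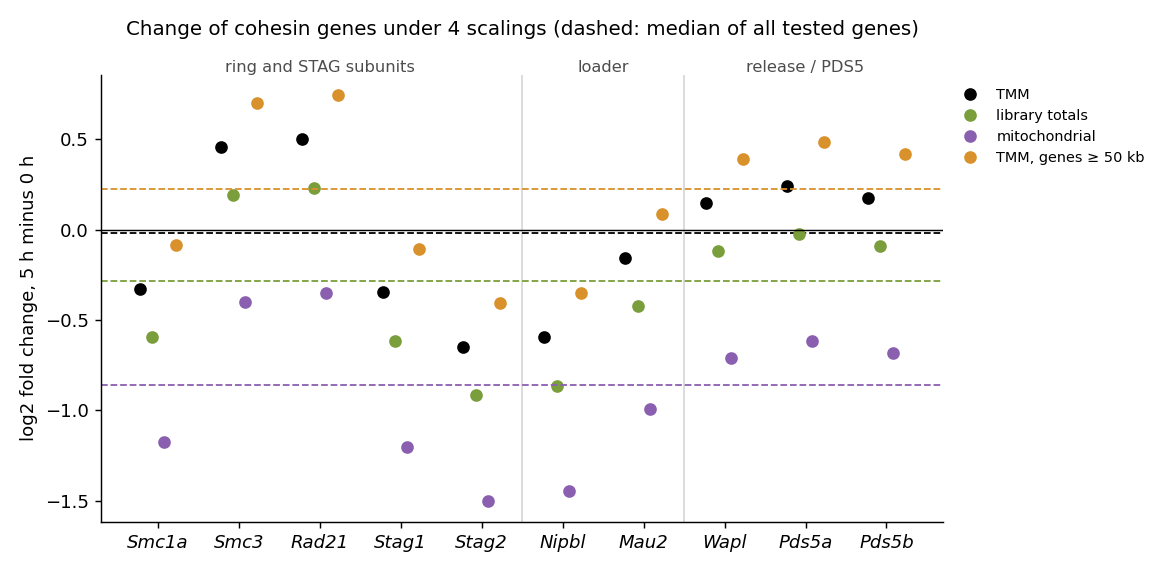
Log2 fold change (5 h minus 0 h) of the 10 cohesin genes with TMM, library totals, mitochondrially encoded genes or TMM on genes of 50 kb or more as the scale. Dashed lines are the median of all tested genes in the same colour, from -0.86 to 0.23. The points of a gene shift together, and the order of the genes stays the same.

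Genes that acetylate, protect or cut cohesin, or build cohesion at replication forks, were taken as a list of 17 that includes Ctcf. Of these, 8 rose, 5 fell and 4 did not pass by edgeR, beside 22% and 21.2% of all tested genes. With a list of 17 genes and no test of the list as a whole, these counts say nothing particular about the regulators. Of those that rose, Haspin spans 2.81 kb, in a class where 32.1% of tested genes rose. Cdca5, Chtf18, Dscc1 and Esco2 span 6.68 to 14.9 kb (24.8% rose), and Espl1, Ddx11 and Ctcf 28.1 to 46.45 kb (18.8%). The list's TMM median log2 fold change of 0.30 became 0.0345 on library totals and -0.56 on the mitochondrial scale, on which 10 were called lower. Without each library in turn, 7 of the 13 calls held every time.

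Among those that rose, Haspin, the kinase that marks histone H3 at centromeres, went from 53.8 ± 0.461 to 112 ± 6.41 CPM (log2 1.06 ± 0.11). Espl1, the protease separase that cuts RAD21, went from 157 ± 18.9 to 280.4 ± 27.5 CPM (log2 0.83 ± 0.11). Esco2, which acetylates SMC3 in S phase, rose by 0.57 ± 0.12, and Cdca5, whose product sororin counters WAPL, by 0.57 ± 0.11. Without 5 h replicate 2 the Esco2 value was 0.36. Chtf18 (0.66 ± 0.11) and Dscc1 (0.83 ± 0.22) of the alternative PCNA clamp loader and the helicase gene Ddx11 (0.36 ± 0.10) also rose. So did Ctcf (0.35 ± 0.12), whose product stops cohesin at loop anchors. Ctcf lost its call when 0 h replicate 1 was left out (adjusted p = 0.182) and when 5 h replicate 2 was (adjusted p = 0.152). Ddx11 was lost without either 0 h library (adjusted p = 0.107 and 0.108) and Dscc1 without 0 h replicate 2 (adjusted p = 0.0842). With mitochondrial scaling, Espl1 (0.00) and Haspin (0.21) kept values at or above 0 and the others that rose were negative.

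Sgo1, which encodes shugoshin, the protector of centromeric cohesin, fell from 162 ± 14.6 to 94.8 ± 18.0 CPM (log2 -0.78 ± 0.13, edgeR adjusted p = 0.00101). Chtf8, the third subunit particular to that clamp loader, fell by 0.74 ± 0.19 while its partners Chtf18 and Dscc1 rose. The Chtf8 value was -0.44 without 5 h replicate 1 and -1.11 without 5 h replicate 2, called lower in both. The separase inhibitor gene Pttg1 (-0.47 ± 0.16) fell while Espl1 rose. Timeless (-0.36 ± 0.10) and Tipin (-0.34 ± 0.13), which encode a fork protection pair, fell as well. Pttg1 lost its call without 0 h replicate 1, 0 h replicate 2 or 5 h replicate 1 (adjusted p = 0.115, 0.103 and 0.159), as did Tipin (adjusted p = 0.304, 0.0923 and 0.119). Timeless lost it without 0 h replicate 1 or 2 (adjusted p = 0.117 and 0.0761). Sgo2a (0.30 ± 0.12), Wdhd1 (0.21 ± 0.11), Esco1 (-0.18 ± 0.16) and Hdac8 (-0.24 ± 0.39), which encodes the SMC3 deacetylase, did not pass.

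Of the 4 germline cohesin genes, Stag3 was the most abundant by counts, with 3293 and 1346 at 0 h and 1718 and 1079 at 5 h. It fell from 169.5 and 171 CPM to 119 and 117 CPM (log2 -0.53 ± 0.09, edgeR adjusted p = 0.00106) and passed without each library in turn. Smc1b fell from 6.96 ± 2.10 to 2.90 ± 0.486 CPM, a call that was lost when either replicate 1 library was left out (adjusted p = 0.177 for 0 h and 0.0535 for 5 h). Rec8, at 2.05 ± 0.0162 and 1.58 ± 0.401 CPM, did not pass. Rad21l had no count in any library.

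For the related SMC complexes, counts are set beside the whole table, where 22% rose and 21.2% fell. With lists of 8 and 7 genes, these counts say nothing particular about either complex. Of 8 condensin genes, which compact mitotic chromosomes, 2 rose, 1 fell and 5 did not pass, and the median log2 fold change of 0.11 became -0.16 on library totals and -0.74 on the mitochondrial scale. Smc4 (0.47 ± 0.11) and Ncapg (0.54 ± 0.11) rose with TMM and were -0.39 and -0.32 with mitochondrial scaling. Without 5 h replicate 2 Smc4 was at 0.31. Ncaph2, a subunit of condensin II, fell by 0.49 ± 0.12, and did not pass without 0 h replicate 2 (adjusted p = 0.0504). Smc2 (0.21 ± 0.11), Ncapd2 (-0.00 ± 0.10) and Ncapd3 (0.08 ± 0.10) did not pass. Of 7 genes of the SMC5/6 complex, which acts in DNA repair, 3 rose and 0 fell by edgeR (43.2% of all tested genes were called either way), with 0 lower at an unadjusted p under 0.05 and 0 called lower by DESeq2. The median of 0.05 became -0.22 on library totals and -0.82 on the mitochondrial scale. Those 3 are the non-SMC genes Nsmce3 (1.10 ± 0.12), Nsmce4a (0.68 ± 0.11) and Eid3 (0.75 ± 0.23). Nsmce3 and Eid3 span 1.36 and 1.3 kb, and tested genes under 5 kb had a median of 0.49, with 32.1% called higher. Nsmce4a spans 14.9 kb, in a class with a median of -0.0046. On the mitochondrial scale 4 of the 7 were called lower, and of the 3 that rose only Nsmce3 (0.26) stayed above 0. Eid3 did not pass without 5 h replicate 2 (0.35, adjusted p = 0.168). The SMC genes themselves, Smc5 (-0.15 ± 0.12) and Smc6 (0.05 ± 0.14), did not pass, nor did Nsmce2 (-0.20 ± 0.22).

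Whether the counting used strand was not given, so reads of a member and of a gene that overlaps it on the other strand cannot be told apart. Ribc1, opposite Smc1a, had 62 and 37 counts at 0 h and 13 and 14 at 5 h, beside 1622, 739, 988 and 677 for Smc1a. It fell by 1.72 ± 0.51 on the log2 scale (edgeR, adjusted p = 0.0204). The pseudogene Gm3081, inside the span of Stag1, rose from 15.7 ± 3.19 to 28.2 ± 5.46 CPM (log2 0.86 ± 0.21, adjusted p = 0.00714) while Stag1 fell. The pseudogene Gm24630, inside Pds5b, had 8, 2, 23 and 18 counts in the order of the libraries. The splicing factor gene Sugp1, which starts 35 bases from Mau2 on the other strand, had a log2 fold change of 0.16 ± 0.10 and, like Mau2, did not pass (adjusted p = 0.238). The long non-coding RNA 5830448L01Rik, opposite the start of Wapl, had 2.92 ± 0.530 and 3.46 ± 0.304 CPM and did not pass. Neighbours that do not overlap included Ube2k next to Pds5a (0.48 ± 0.11) and N4bp2l2 next to Pds5b (0.50 ± 0.11), which rose, and Pccb next to Stag1 (-0.98 ± 0.28), which fell. Nutf2-ps1 (-0.72 ± 0.30) and Rbm20 (-0.24 ± 0.38), on either side of Smc3, had negative values while Smc3 rose, and did not pass.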

How the data were processed

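Per the labels' protocols, 4sU-labelled RNA was biotinylated with HPDP, caught on streptavidin beads and sequenced. The authors deposited whole-number gene counts, treated here as estimated counts because 3 was more frequent than 2 in every library, as in counts rebuilt from coverage. The tools StringTie 2.2.1, HISAT2 2.2.1 and DESeq2 1.42.0 and the build mm10 are named, with no role, per the submitters' processing notes. The sources used here give neither the annotation nor the use of strand. A floor of 3 counts was 0.169 to 0.418 CPM, for counting error only.

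Genes kept by filterByExpr were fitted in edgeR 4.0.16 with TMM and its quasi-likelihood test, 5 h minus 0 h, with Benjamini-Hochberg adjustment over all 17344 tested genes. Alternatives used DESeq2 1.42.0, limma 3.58.1 (voom), other scalings and filters, a replicate block, and leaving out each library. The fit was also run on simulated data with few changed genes, balanced between higher and lower. That does not test TMM scaling for data with as many called genes as these. Spans and promoters came from RefSeq GRCm38. Spans were matched by symbol, for 15033 tested genes. Named were all 10 members, every called gene of the related lists with up to 3 not called, the germline genes, neighbours and Snrnp70. Hdac8 was added after its value was seen, and 1 item first placed in the regulator list was left out and is not reported here. Members and lists were chosen with earlier results of these data known.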

Additional observations from a re-analysis of the deposited data

How the results depend on the processing

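Over 15 alternatives each, Stag2 and Nipbl stayed called lower, and 114 of the 150 member values in all kept their sign and their side of the threshold, 13 lost and 14 gained the threshold, and 9 changed sign. With mitochondrial scaling Smc3 was at -0.40, Rad21 at -0.35, Wapl at -0.71, Pds5a at -0.61 and Pds5b at -0.68. With library totals Wapl was at -0.12, Pds5a at -0.025 and Pds5b at -0.092. With TMM on genes of 50 kb or more Mau2 was at 0.087. Members called higher (2) and lower (4) became 1 and 5 on library totals, 0 and 9 on the mitochondrial scale and 5 and 2 with TMM on long genes, and ran from 1 to 4 and from 2 to 4 when each library was left out. Cohesion regulators (8 higher, 5 lower) became 4 higher on library totals, 0 and 10 under mitochondrial scaling, 2 lower with TMM on long genes and 3 lower with DESeq2, and 2 to 6 were lower without each library. Germline genes called lower (2) were 1 with DESeq2 and 1 to 2 without each library. Condensin genes (2 higher, 1 lower) became 0 and 2 on library totals, 0 and 7 under mitochondrial scaling, 5 and 0 with TMM on long genes, and 0 to 2 were lower without each library. SMC5/6 genes (3 higher, 0 lower) had 1 lower with library totals, 0 higher and 4 lower with mitochondrial scaling, and 0 to 1 lower without each library. All tested genes (3814 higher, 3677 lower) had 2297 higher on library totals, 396 and 8872 under mitochondrial scaling and 2389 lower with TMM on long genes. The causes were not tested, except that a scaling moves all genes together. The Pds5a to Pds5b change ran from -0.049 to 0.18 without each library. The fits that leave out a library hold a lone sample in a group and assume that it varies like the other group.

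With the replicate number as a block, 3 members were higher and 4 lower, Pds5a being added (0.24, adjusted p = 0.0398 by edgeR). The block lowered the SE of every member, for Smc3 from 0.11 to 0.07. The labels do not say what the replicate numbers stand for. The R1 minus R2 deviations of the groups correlated at 0.0505 across genes. That cannot show whether a number marks a shared batch, and with 2 numbers pairing could not be checked further. The block left the ratio changes as they were, by construction. Each group has 2 libraries, so no single ratio could pass an exact test.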
